A study of Mus musculus with 10 samples.

Results

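Proteoglycan core proteins and the enzymes and transporters that build and sulfate their glycosaminoglycan chains were followed in the aorta of Npas2 mutant and wild-type mice. The members were chosen by name: 49 genes were listed, and 47 of them had a probe set naming that gene alone, out of 18193 genes named on the array. Xylt1 and Ndst1 were not analysed here. The 47 fell into 6 genes of sulfate supply, 12 of chain synthesis, 17 sulfotransferases and endosulfatases and 12 cores. Each gene was read on 1 probe set, that with the highest mean over all 10 arrays.

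RNA came from the aorta of male mice, 5 arrays of wild type (F11, F14_2, F15, F16 and F17, strain C57Bl/6) and 5 of the NPAS2 mutant (F12, F13, F18, F19 and F20, on a C57Bl/6J background). Any difference of strain background between the groups cannot be told apart from the mutation. NPAS2 is a clock transcription factor that pairs with BMAL1. All animals were taken at circadian time 14 h (ZT14), after 2 weeks or more of alternating 12 h light and 12 h dark and then no less than 30 h of constant darkness. The question was which transcripts differ between mutant and wild-type aorta at this single time. The sources used here do not give age, the nature of the mutation, any pooling of animals or whether each array had its own mouse. The p-values therefore measure how far these arrays spread, which may be technical.

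A proteoglycan is a core protein that carries long sugar chains, the glycosaminoglycans heparan sulfate, chondroitin sulfate or dermatan sulfate. Cells import sulfate, turn it into the activated donor PAPS, carry PAPS into the Golgi and there transfer sulfate to growing chains at defined positions. In the artery wall versican fills the matrix between smooth muscle cells, perlecan lies in basement membranes, and syndecans and glypicans sit on cell surfaces, where their chains bind growth factors and lipoproteins.

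Values are log2 expression per probe set, and the number of arrays limits their precision. Levels of different probe sets are not compared, since probes differ in brightness. A probe set was tested if it exceeded the median of its own array on at least 5 arrays, which 41 of the 47 members did, 39 of them on all 10 arrays and none through 1 group alone. Upper quartiles per array lay between 5.40 and 5.55, no arrays were identical, and correlations between arrays across probe sets lay between 0.986 and 0.996. Npas2 itself was dim (1421037_at, 3.71 ± 0.24 in wild type and 3.43 ± 0.03 in the mutant, SD, n = 5 each, limma adjusted p = 0.249) and does not check the genotype. All 10 smooth muscle markers, among them Acta2 and Myh11, were above the filter, with a list mean of 10.84 to 11.13 on wild-type and 10.70 to 10.96 on mutant arrays, so the defining markers of the artery's muscle layer were present. Skeletal muscle signal varied widely: its 11 markers had means of 3.23 to 9.75 on wild-type and 3.30 to 10.93 on mutant arrays, highest on mutant F12 and F20, then wild type F16 and mutant F19.

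Of the 41 tested members, 29 had a lower and 12 a higher mean in the mutant. Slc26a2, the sulfate transporter of the plasma membrane, was the member that passed the test over the whole table on its chosen probe set (1 of 41, lower). Among all 10943 genes tested on 1 probe set each, 0.183% passed, 0.0640% in the lower direction. A further 4 members, the glypicans Gpc3 and Gpc6, the chondroitin sulfotransferase Chst12 and the chondroitin synthase Chsy1, had 5 mutant arrays that all lay below the 5 wild-type arrays without passing. With Slc26a2 that made 5 of 41 (12.2%) whose groups did not overlap, all lower, against 4.21% of all genes and 2.39% with a lower mean. At an unadjusted limma p under 0.05 stood 9 of 41 members (22.0%), all lower in the mutant, where 15% of all genes (1646 of 10943) did in either direction and 9.83% with a lower mean. The median change of the 41 was -0.10 on the log2 scale, beside -0.02 for all tested genes, of which 55.9% had a lower mean in the mutant. The members were picked with earlier results of these data known, so these shares are descriptions. In a piece of tissue fewer cells of a type and less RNA per cell cannot be told apart.

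**Figure D1:**
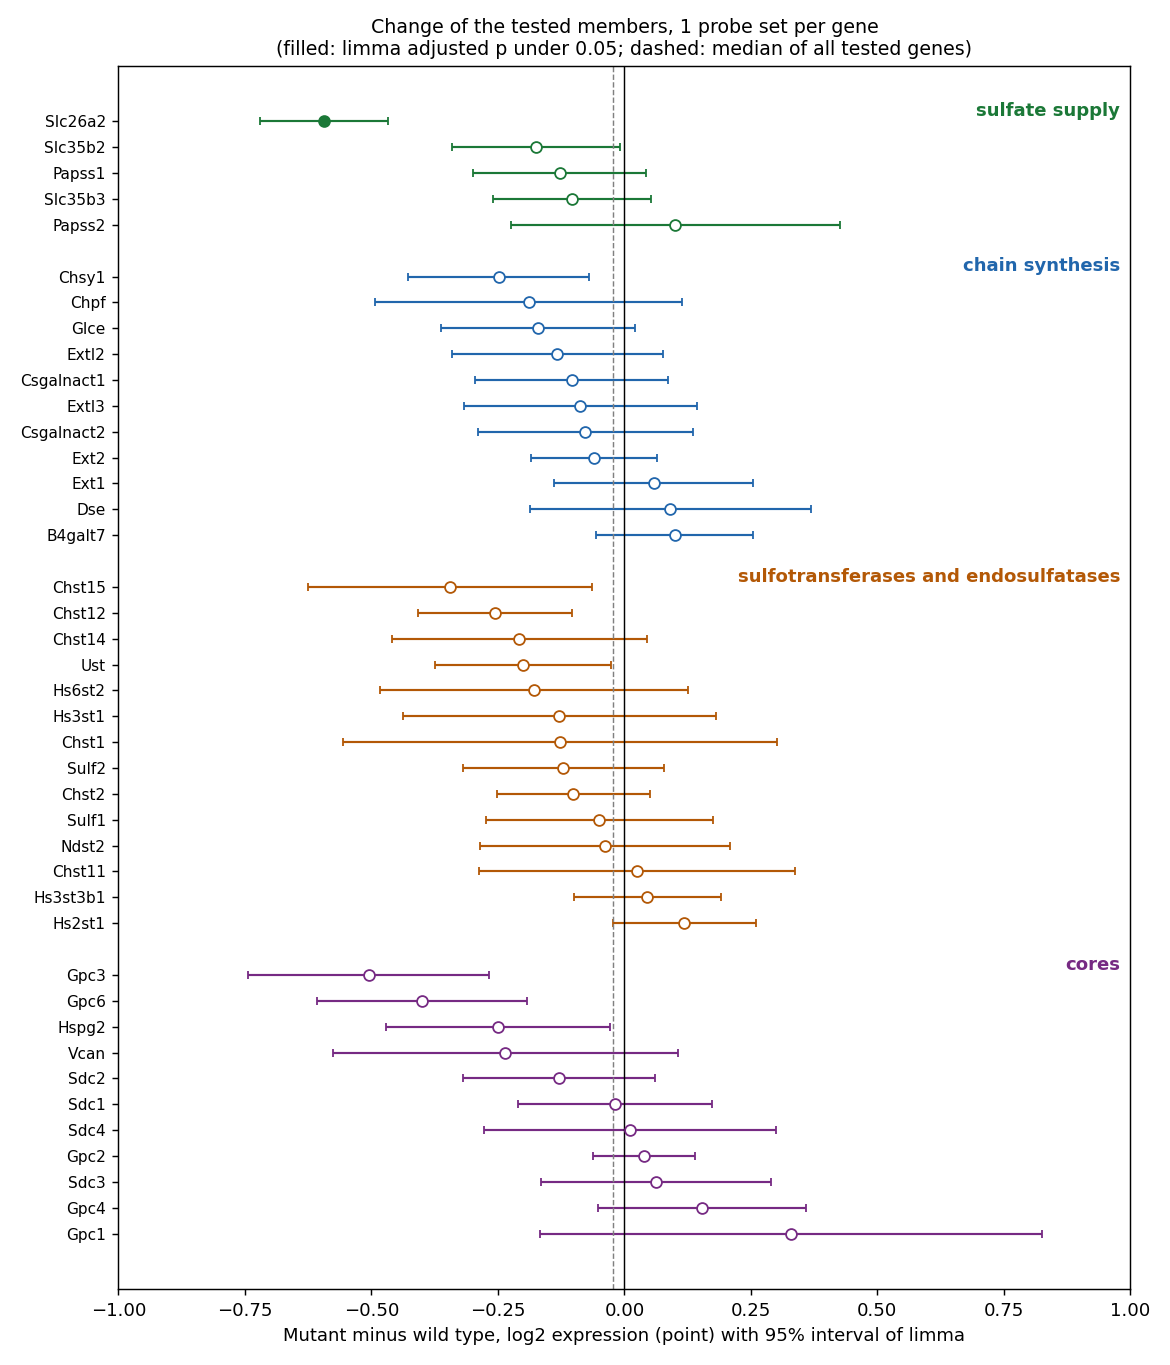
Mutant minus wild-type log2 expression of the 41 tested members (horizontal axis, 1 probe set per gene on the vertical axis), grouped by role, with the 95% interval of the limma fit as bars; filled points passed an adjusted p of 0.05 and the dashed line is the median of all tested genes. Slc26a2, at -0.59, is the filled point, and 29 of the 41 points lie left of 0.

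Sulfate supply began with Slc26a2, which fell to 66.2% of its wild-type level. SLC26A2 exchanges sulfate for other anions at the cell surface, and its loss in people causes chondrodysplasias with undersulfated cartilage. On probe set 1427195_at the wild-type arrays F11, F14_2, F15, F16 and F17 read 5.57, 5.46, 5.63, 5.57 and 5.66, and the mutant arrays F12, F13, F18, F19 and F20 read 4.88, 5.02, 5.05, 4.97 and 4.99. The groups stood 0.41 apart at their nearest arrays, more than the range within either group. The change was -0.59 ± 0.06 (SE, n = 5 per group), with a 95% interval from -0.72 to -0.47 and a limma adjusted p of 0.00721. It passed with any of the 10 arrays left out, at adjusted p values (limma) between 0.0157 and 0.0344.

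The other probe sets of Slc26a2 did not show this difference. On 1443882_at wild type stood at 4.40 ± 0.28 and the mutant at 4.25 ± 0.17 (SD, n = 5 each), a change of -0.15 ± 0.13 (SE) with a 95% interval from -0.45 to 0.15 and a limma adjusted p of 0.595. The third, 1421145_at, was too dim to test, at 2.92 ± 0.07 and 2.88 ± 0.05 (SD, n = 5 each, exact permutation p = 0.429). The sources used here do not say which part of the transcript each probe set reads. Averaging the tested probe sets gave -0.37 and ended the call (limma adjusted p = 0.0882).

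Markers of brown fat, which surrounds the thoracic aorta, were read beside this result. Of 10 brown fat markers above the filter 9 had a higher mean in the mutant and 0 passed limma's adjusted test. At an unadjusted limma p under 0.05 stood 6 of the 10, beside 15% of all genes in either direction. Their mean lay between 8.06 and 8.81 on wild-type arrays and between 8.90 and 9.51 on mutant arrays, without overlap. Zic1, the remaining measured marker, was below the filter. The brown fat mean separates the groups, so a fit holding it cannot tell brown fat signal from genotype, here or in later paragraphs. With that mean in the fit the change of Slc26a2 was -0.50 ± 0.10 (SE, 0.06 without it). It no longer passed (limma adjusted p = 0.267), and 0 probe sets of the whole table did. At an unadjusted limma p under 0.05 stood 1655 of the 22340 probe sets, beside 3427 without the brown fat mean in the fit. Without the 4 arrays of highest skeletal muscle signal the change was -0.54 ± 0.08 (SE, 4 wild-type and 2 mutant arrays, limma adjusted p = 0.483), and again 0 probe sets passed (1549 at an unadjusted p under 0.05). The part of other tissue in the result was not tested. Cartilage markers were measured as well, because Slc26a2 is best known from cartilage: 8 of 12 were below the filter, Col2a1 (2.48 to 2.77) and Acan (2.93 to 3.76) among them. The 4 above it were Cytl1 (9.09 to 10.03), Col9a3, Sox9 and Hapln1. Their changes were -0.25, 0.04, 0.21 and -0.37, and 0 passed limma's adjusted test. The mean of all 12 lay between 3.60 and 3.72 on wild-type arrays and between 3.56 and 3.74 on mutant arrays.

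**Figure D2:**
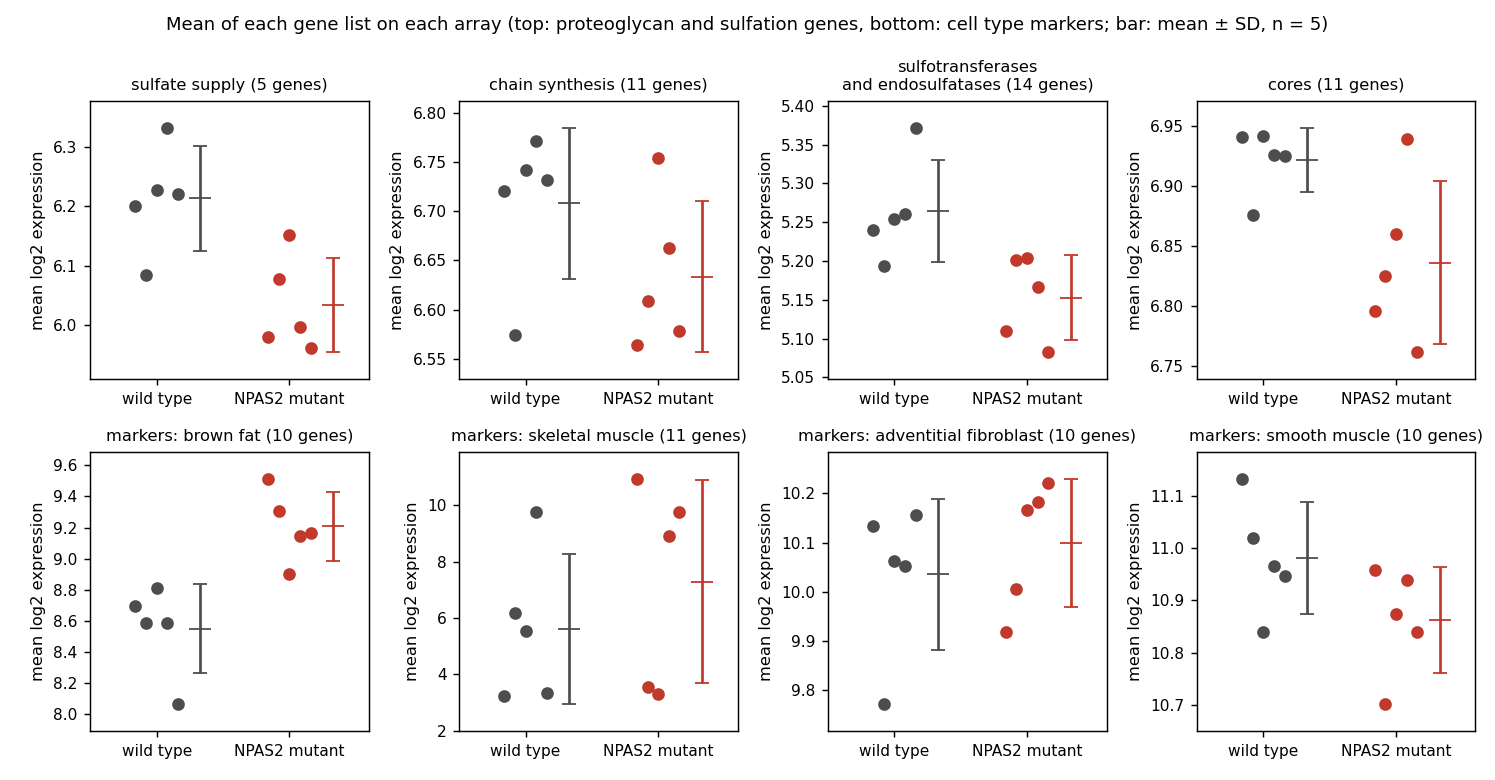
Mean log2 expression (vertical axes) of the members above the filter in each role (top row) and of cell type marker lists (bottom row) on each array, wild type in grey and NPAS2 mutant in red, with mean ± SD of 5 arrays. The brown fat mean separates the groups, at 8.06 to 8.81 against 8.90 to 9.51. The means of the fibroblast and smooth muscle markers and of all 4 member lists overlap.

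The steps after import did not pass the test. Papss1 and Papss2 encode the PAPS synthases. Papss1 had 7.16 ± 0.06 in wild type and 7.03 ± 0.15 in the mutant (SD, n = 5 each), a change of -0.13 with a 95% interval from -0.30 to 0.04. The tested probe sets of Papss2 disagreed. The chosen probe set 1434510_at had a difference of 0.10 (95% interval -0.22 to 0.43, limma adjusted p = 0.761), and without wild type F14_2, the lowest array at 6.68, the change was -0.02. On 1421989_s_at the wild-type arrays read 5.73, 5.74, 5.68, 5.75 and 5.78 and the mutant arrays 6.22, 6.09, 5.79, 5.87 and 6.10. Here all mutant arrays lay above all wild-type arrays, with a change of 0.28 ± 0.08 (SE) and a limma adjusted p of 0.172. On 1421987_at the change was -0.22 (95% interval -0.46 to 0.02, limma adjusted p = 0.362).

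Slc35b2 and Slc35b3 encode the Golgi transporters of PAPS. Slc35b2 read 5.18, 5.27, 5.05, 5.35 and 5.11 on the wild-type and 5.14, 4.97, 5.12, 4.93 and 4.93 on the mutant arrays of 1423927_at. The groups overlapped, with a change of -0.17 ± 0.08 (SE) at a limma adjusted p of 0.301. Its dimmer probe set 1429007_at went the other way, with all 5 mutant arrays (3.56 to 4.06) above all wild-type arrays (3.21 to 3.56, nearest arrays 0.002 apart) and a change of 0.22 (limma adjusted p = 0.365). Slc35b3 had a change of -0.10 (95% interval -0.26 to 0.05). Slc26a1, the other sulfate transporter of the list, was below the filter at 3.04 ± 0.03 and 3.10 ± 0.04 (SD, n = 5 each, exact permutation p = 0.0556). For the 5 tested supply genes the median change was -0.13, with 1 of 5 passing.

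The glypicans, heparan sulfate proteoglycans held at the cell surface by a lipid anchor, included the largest changes among the cores. Gpc6 passed on 1 of its 4 tested probe sets, 1437417_s_at. There the wild-type arrays read 7.72, 7.81, 7.86, 7.87 and 7.85 and the mutant arrays 7.41, 7.38, 7.53, 7.46 and 7.53, without overlap. Gpc6 fell by 0.36 on this probe set (SE 0.06, 95% interval -0.48 to -0.24, limma adjusted p = 0.0320), to 77.8% of wild type. This probe set is not the one with the highest mean, and it was singled out after its values were seen. Of all 22340 tested probe sets 0.215% passed, 0.121% with a lower mean, and of the 69 tested probe sets of members 2 did, those of Slc26a2 and Gpc6.

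The chosen probe set of Gpc6, 1428774_at, read 9.69, 9.90, 9.83, 9.71 and 9.83 in wild type and 9.18, 9.25, 9.60, 9.60 and 9.34 in the mutant. Again every mutant array was below every wild-type array, with F18 and F19 nearest to wild type. The change was -0.40 ± 0.09 (SE, 95% interval -0.61 to -0.19, limma adjusted p = 0.121), and -0.18 with the brown fat mean in the fit. On 1419688_at the groups were also apart, by 0.02, with a change of -0.54 ± 0.12 (SE, limma adjusted p = 0.101). The fourth tested probe set, 1419689_at, overlapped (3.93 ± 0.23 and 3.84 ± 0.13, SD, n = 5 each, change -0.10, 95% interval -0.34 to 0.15). With its 4 tested probe sets averaged, Gpc6 had a change of -0.35 and passed (limma adjusted p = 0.0463). The call on 1437417_s_at held in 1 of the 10 fits that leave out an array, that without wild type F11 (limma adjusted p = 0.0449). In the other 9 the change lay between -0.38 and -0.34 and the limma adjusted p between 0.0535 and 0.0898. It also ended with the brown fat mean in the fit (-0.28, limma adjusted p = 0.573), with the skeletal muscle mean (-0.37, limma adjusted p = 0.0741) and without the 4 arrays richest in skeletal muscle signal (-0.36, limma adjusted p = 0.590).

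Gpc3, the glypican lost in a human overgrowth syndrome, read 7.57, 7.53, 7.75, 7.45 and 7.61 on the wild-type and 6.67, 7.20, 7.15, 7.14 and 7.21 on the mutant arrays of 1450990_at, its only probe set. All mutant arrays were below all wild-type arrays, and F12 lay far below the rest. The change was -0.50 ± 0.11 (SE, 95% interval -0.74 to -0.27), with a limma adjusted p of 0.0944, and -0.40 without F12. Under a filter at the 75th percentile of each array, which leaves 11283 probe sets to adjust over, it passed (limma adjusted p = 0.0479). Gpc3 did not pass with the brown fat mean in the fit (-0.35, limma adjusted p = 0.728) or the skeletal muscle mean (-0.45, limma adjusted p = 0.169). Without the 4 arrays richest in skeletal muscle signal its change was -0.44 (limma adjusted p = 0.513).

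The remaining glypicans had higher means in the mutant and did not pass. Gpc1 had 4.41 ± 0.24 in wild type and 4.74 ± 0.52 in the mutant (SD, n = 5 each), a change of 0.33 with a 95% interval from -0.17 to 0.82, and of -0.23 with the brown fat mean in the fit. Mutant F12 alone stood at 5.65, while the other 4 mutant arrays lay between 4.39 and 4.60, inside the wild-type range of 4.23 to 4.70, and without F12 the change was 0.10. Gpc4 had a difference of 0.15 (95% interval -0.05 to 0.36) on 1421088_at and of -0.04 on its other probe set. Gpc2 had a difference of 0.04, and Gpc5 was below the filter (2.75 ± 0.03 and 2.79 ± 0.02, SD, n = 5 each, exact permutation p = 0.0556).

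Syndecans, the cell-surface proteoglycans with a membrane-spanning core, had no probe set that passed (limma, 10 tested). Sdc2 had 8.83 ± 0.01 in wild type and 8.70 ± 0.19 in the mutant (SD, n = 5 each), so the wild-type arrays agreed closely and the mutant arrays spread from 8.43 to 8.92. Its change of -0.13 had a 95% interval from -0.32 to 0.06. Sdc3 had a difference of 0.06, and Sdc1 (-0.02) and Sdc4 (0.01) took the opposite sign under other scalings of the arrays, at 0.01 for Sdc1 after quantile normalisation and -0.01 for Sdc4 after median centring. On the chosen probe sets the limma adjusted p lay between 0.481 and 0.975. Other probe sets differed from these: Sdc1 had -0.14 on 1415943_at and -0.18 on 1448158_at, and Sdc4 had 0.18 on 1417654_at.

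The matrix cores had lower means in the mutant and did not pass. Hspg2, which encodes perlecan, read 8.24, 7.96, 8.01, 8.02 and 8.03 in wild type and 7.71, 7.70, 7.94, 8.08 and 7.56 in the mutant on 1418670_s_at. The groups overlapped through mutant F19, at a change of -0.25 ± 0.10 (SE, limma adjusted p = 0.272), while the other probe set had a difference of 0.03. Vcan, which encodes versican, had 8.43 ± 0.21 and 8.20 ± 0.32 (SD, n = 5 each), a change of -0.24 with a 95% interval from -0.58 to 0.11, and of 0.06 without the 4 arrays richest in skeletal muscle signal. Its other tested probe sets had changes of -0.20 and -0.20. Over the 11 tested cores the median change was -0.02, with 6 lower and 5 higher. That split was 5 lower and 6 higher after quantile normalisation, with a median of 0.01.

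**Figure D3:**
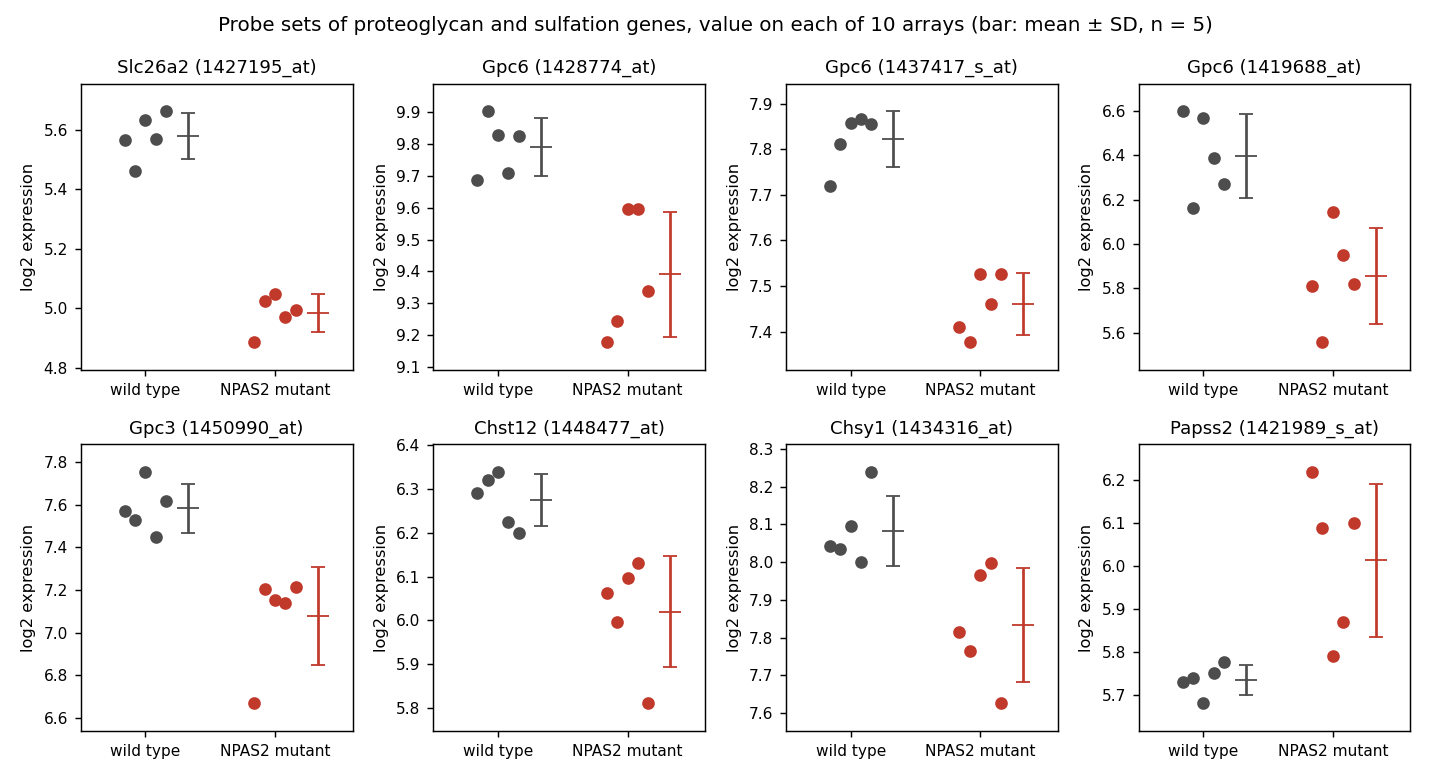
Log2 expression (vertical axes, a scale of its own in each panel) on each of 5 wild-type (grey) and 5 NPAS2 mutant (red) arrays for 8 probe sets, with mean ± SD beside the points. In the Slc26a2 panel the groups are 0.41 apart, in the Gpc6, Gpc3, Chst12 and Chsy1 panels the mutant points also lie below wild type, and in the panel of Papss2 1421989_s_at they lie above.

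Chain synthesis showed no gene that passed: 8 of 11 tested genes had a lower mean in the mutant, with a median change of -0.09. With the brown fat mean in the fit 6 were lower and 5 higher, with a median of -0.01. Chsy1, which builds the alternating chondroitin backbone, read 8.04, 8.03, 8.10, 8.00 and 8.24 in wild type and 7.82, 7.77, 7.97, 8.00 and 7.63 in the mutant. The groups were apart by 0.004 only, with mutant F19 next to wild type F16. The change was -0.25 ± 0.08 (SE, 95% interval -0.43 to -0.07), with a limma adjusted p of 0.197, and -0.08 with the brown fat mean in the fit. Its partner Chpf, the chondroitin polymerizing factor, had a difference of -0.19 (95% interval -0.49 to 0.11), or -0.31 without wild type F14_2, its lowest array. Csgalnact1 and Csgalnact2, which start chondroitin chains, had differences of -0.10 and -0.08.

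On the heparan side, Ext1 and Ext2, the subunits of the heparan sulfate polymerase, had differences of 0.06 and -0.06, with 95% intervals from -0.14 to 0.25 and from -0.18 to 0.06. Extl2 and Extl3, related enzymes that act on the first sugars of a chain, had differences of -0.13 and -0.09. The epimerases Glce, of heparan sulfate, and Dse, of dermatan sulfate, had differences of -0.17 and 0.09. B4galt7, which adds the first galactose of the linker, had a difference of 0.10, and of 0.20 (95% interval -0.02 to 0.42) on its dimmer probe set 1426303_at. Xylt2, which starts the linker with xylose, was below the filter (2.74 ± 0.08 and 2.69 ± 0.03, SD, n = 5 each, exact permutation p = 0.429). On the chosen probe sets the limma adjusted p of these 7 tested genes lay between 0.369 and 0.771.

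Promoter sequences of Chsy1 and of 4 other members are shown because NPAS2 with its partner BMAL1 is known to bind the E-box CACGTG. RefSeq promoters (GRCm38.p6, 250 bases before to 50 after a start) were given for 39 of the 49 listed genes in 48 windows, and CACGTG, which reads the same on both strands, occurred in 5 of the 48 (10.4%). Among all 32851 RefSeq windows, 7.15% held it. Slc26a2, Ext1, Extl3, Csgalnact1, Xylt1, Ndst1, Sulf1, Gpc1, Gpc6 and Sdc2 had no entry. A match is a description of the letters and not a site of binding. The E-box is in capitals, each sequence runs 5′ to 3′ on the strand of its gene, and Chsy1 is given over its whole window:
Chsy1 (chr7:66109242-66109541, plus strand, E-box starting 118 bases before the start): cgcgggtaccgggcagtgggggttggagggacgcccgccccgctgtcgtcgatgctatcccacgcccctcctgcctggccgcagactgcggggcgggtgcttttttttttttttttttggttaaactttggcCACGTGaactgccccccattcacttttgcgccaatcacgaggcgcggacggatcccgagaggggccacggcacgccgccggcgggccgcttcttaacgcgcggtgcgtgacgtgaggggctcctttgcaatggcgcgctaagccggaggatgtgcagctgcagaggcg
Ext2 (chr2:93822594-93822653, minus strand, 58 bases before the start): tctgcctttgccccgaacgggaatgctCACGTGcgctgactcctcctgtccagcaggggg
Extl2 (chr3:116008153-116008212, plus strand, 117 bases before the start): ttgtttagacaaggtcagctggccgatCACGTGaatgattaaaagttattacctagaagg
Chst14 (chr2:118926268-118926327, plus strand, 202 bases before the start): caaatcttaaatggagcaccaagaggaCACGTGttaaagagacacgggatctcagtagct
Slc26a1 (chr5:108674811-108674870, minus strand, 47 bases before the start): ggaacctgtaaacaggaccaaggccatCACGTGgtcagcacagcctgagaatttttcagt

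The 5 genes with these letters did not share a size of change. Chsy1 (-0.25), Chst14 (-0.21), Extl2 (-0.13) and Ext2 (-0.06) had lower means in the mutant, and Slc26a1 was below the filter.

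Among the sulfotransferases and endosulfatases 11 of 14 tested genes had a lower mean in the mutant, with a median change of -0.12, and 0 passed (limma, 3 at an unadjusted p under 0.05). These 3 were 21.4% of the 14, all lower, beside 15% of all genes in either direction and 9.83% with a lower mean. All 3, Chst12, Chst15 and Ust, act on chondroitin or dermatan sulfate, as do Chst11 and Chst14, which stood above that p. Chst12, which sulfates position 4 of chondroitin, read 6.29, 6.32, 6.34, 6.23 and 6.20 in wild type and 6.06, 6.00, 6.10, 6.13 and 5.81 in the mutant. Every mutant array was below every wild-type array, by 0.07 at the nearest. The change was -0.26 ± 0.07 (SE, 95% interval -0.41 to -0.10), with a limma adjusted p of 0.144. With the brown fat mean in the fit it was -0.31 ± 0.12 (SE, limma adjusted p = 0.636).

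Chst15, which adds a further sulfate to chondroitin sulfated at position 4, read 5.86, 6.07, 5.58, 5.69 and 5.72 in wild type and 5.24, 5.86, 5.34, 5.34 and 5.42 in the mutant. Mutant F13 lay among the wild-type arrays and the other 4 below them. The change was -0.34 ± 0.13 (SE, 95% interval -0.63 to -0.06, limma adjusted p = 0.240), and the dimmer probe set had a difference of -0.16. Without the 4 arrays richest in skeletal muscle signal the change was -0.21, and with the brown fat mean in the fit -0.37. Ust, which sulfates the uronic acid of dermatan and chondroitin sulfate, had a difference of -0.20 ± 0.08 (SE, limma adjusted p = 0.264) on 1458897_at and of 0.12 on its other probe set. Without the 4 arrays richest in skeletal muscle signal the first was -0.05. Chst14, the dermatan 4-O-sulfotransferase, had a difference of -0.21 (95% interval -0.46 to 0.05), and Chst11, which like Chst12 sulfates position 4, of 0.02 (95% interval -0.29 to 0.34).

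Of the heparan sulfotransferases 0 passed (limma, 0 at an unadjusted p under 0.05 on the chosen probe set). Hs2st1, which sulfates the uronic acid of heparan sulfate, had a difference of 0.12 (95% interval -0.02 to 0.26) on 1450729_at, while a dimmer probe set, 1440905_at, had a difference of -0.38 ± 0.15 (SE, limma adjusted p = 0.271). Ndst2, an N-deacetylase and N-sulfotransferase, had a difference of -0.04, Hs6st2 of -0.18, Hs3st1 of -0.13 and Hs3st3b1 of 0.05. Hs6st1 was below the filter, as were Chst3 and Chst7, which sulfate position 6 of chondroitin (exact permutation p between 0.246 and 0.905). Sulf1 and Sulf2, the extracellular enzymes that remove 6-O-sulfate from heparan sulfate, stood at 8.56 ± 0.15 and 8.80 ± 0.05 in wild type and at 8.51 ± 0.18 and 8.68 ± 0.20 in the mutant (SD, n = 5 each). Their changes were -0.05 (95% interval -0.27 to 0.18) and -0.12 (95% interval -0.32 to 0.08), and the 3 other tested probe sets of the pair had differences between -0.08 and -0.04. Chst1 and Chst2, which sulfate keratan sulfate and other galactose- or glucosamine-bearing sugars, had differences of -0.13 and -0.10. That of Chst1 was 0.05 without wild type F17, its highest array at 6.66, and 0.40 with the brown fat mean in the fit.

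Across the 4 roles the list means overlapped between the groups. The mean of the 5 tested supply genes lay between 6.08 and 6.33 on wild-type and between 5.96 and 6.15 on mutant arrays. For the 14 sulfotransferases and endosulfatases the ranges were 5.19 to 5.37 and 5.08 to 5.20. The 11 chain synthesis genes gave 6.57 to 6.77 and 6.56 to 6.75, and the 11 cores 6.88 to 6.94 and 6.76 to 6.94. Mutant F20 was lowest of all arrays in 3 of the 4 lists and F12 in chain synthesis. Means of smooth muscle markers (9 of 10 lower in the mutant, 0 passing limma's adjusted test) were 10.98 in wild type and 10.86 in the mutant. At an unadjusted limma p under 0.05 stood 5 of the 10, all lower, beside 15% of all genes and 9.83% with a lower mean. Myh11 (-0.18) and Lmod1 (-0.26) had mutant arrays all below wild type, as did 2.39% of all genes. Des was higher, at 0.48, with mutant F12 at 8.41. Adventitial fibroblast markers (8 of 10 higher) had 10.04 and 10.10. Of 9 macrophage and leukocyte markers above the filter 8 had a higher mean in the mutant and 0 passed. At an unadjusted limma p under 0.05 stood 3 of the 9 (Adgre1, Cd14 and Lyz2), beside 15% of all genes in either direction. The mean of the 9 lay between 7.00 and 7.28 on wild-type and between 7.18 and 7.61 on mutant arrays, which overlap. The part of these cell types in the members' values was not tested.

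Other genes of the pathway were compared from lists outside the members. Of 84 listed genes 51 were tested, 31 with a lower and 20 with a higher mean, a median change of -0.05, and 0 passed (limma). At an unadjusted p under 0.05 stood 11 of the 51 (21.6%, beside 15% of all genes), 9 of them lower. The groups did not overlap for 3 of the 51 (5.88%, beside 4.21% of all genes), namely Fmod, Sgsh and Gfpt2. Among other cores, Fmod, the small leucine-rich proteoglycan fibromodulin, had a difference of -0.56 ± 0.14 (SE, limma adjusted p = 0.130) and had mutant arrays all below wild type. Col18a1, a basement membrane collagen that carries heparan sulfate, had a difference of -0.33 ± 0.12 (limma adjusted p = 0.219), and 10 of the 16 tested cores of this list were lower. At an unadjusted limma p under 0.05 stood 6 of the 16 (37.5%), all lower, beside 15% of all genes and 9.83% with a lower mean. They were Fmod, Col18a1, Bgn (-0.20), Prelp (-0.15), Cspg4 (-0.24) and Tgfbr3 (-0.17), while Dcn stood at 0.03. In sugar nucleotide supply and sulfate handling 6 of 9 were higher: Gfpt2, of the hexosamine pathway, had a difference of 0.38 ± 0.10 (limma adjusted p = 0.153) with groups apart, and Slc35d1, a Golgi and endoplasmic reticulum carrier of UDP-sugars, of -0.30 (limma adjusted p = 0.332). Of 15 breakdown genes 11 were lower, Sgsh, the lysosomal heparan N-sulfatase, at -0.51 ± 0.21 (limma adjusted p = 0.286, or -0.29 without mutant F12 at 2.83) and Adamts1, a protease of versican, at -0.29, or -0.14 without wild type F16. Of 7 tested linker and chain genes 5 were lower, with B3gat3, which adds the glucuronic acid of the linker, at 0.23 and Pxylp1, which removes phosphate from the xylose, at 0.15, or 0.03 without wild type F14_2 and 0.002 without mutant F18. Of 4 tested hyaluronan genes 2 were lower, with Hapln1, a link protein, at -0.37 (-0.23 without wild type F16). Cemip2, a cell-surface relative of the hyaluronan-degrading protein CEMIP, stood at -0.22 and Hyal2, a hyaluronidase, at 0.22, or 0.07 without wild type F14_2. None of the 12 further sulfotransferases passed the filter on brightness.

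**Figure D4:**
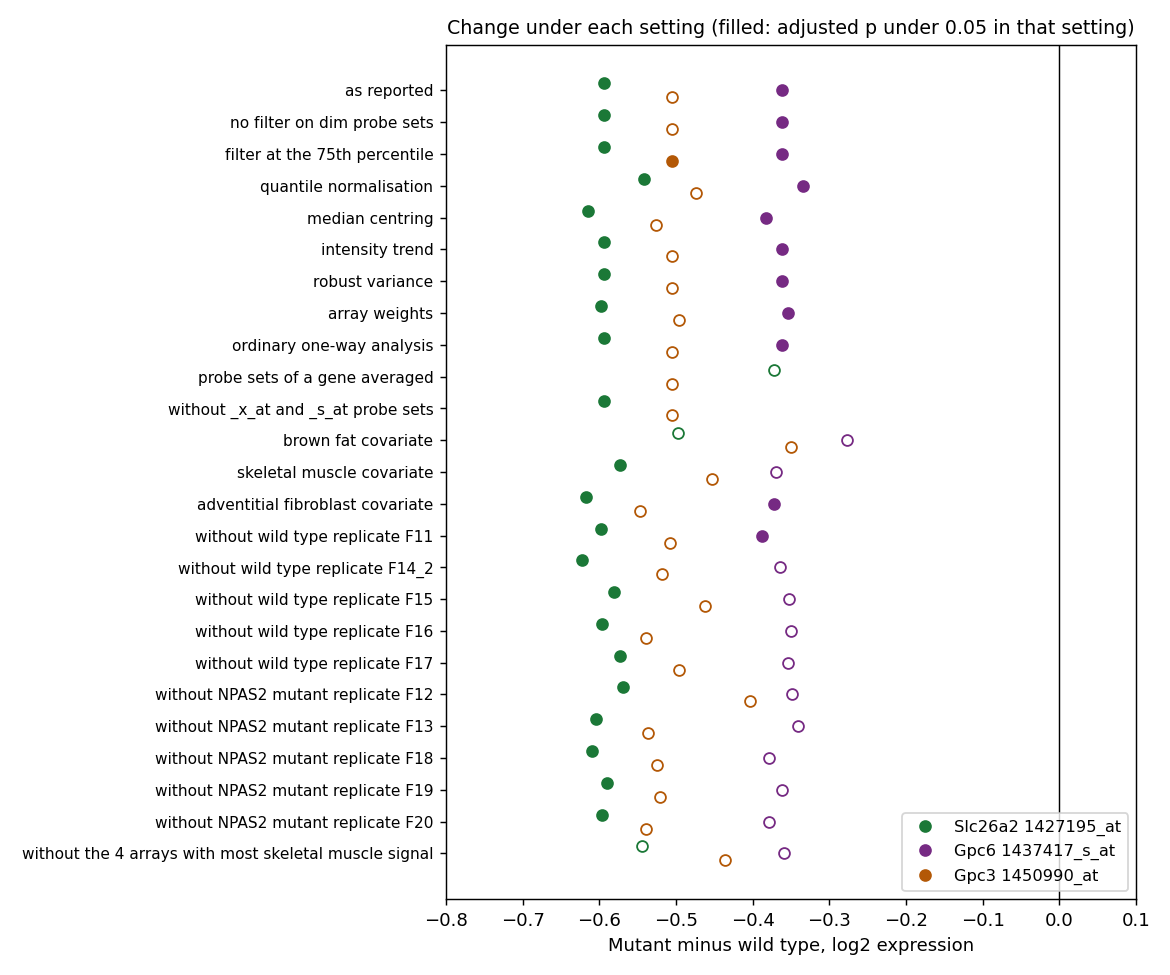
Mutant minus wild-type log2 expression (horizontal axis) of 3 probe sets under each setting (vertical axis), filled where the adjusted p of that setting was under 0.05. Slc26a2 1427195_at stays between -0.62 and -0.37 and is filled in all 10 fits that leave out an array, Gpc6 1437417_s_at is filled in 1 of those, and Gpc3 1450990_at in none.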

How the data were processed

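The authors deposited log2 expression values, 1 per probe set and array, for 45101 probe sets on 10 Affymetrix mouse arrays, already summarised and normalised. Per the submitters' processing notes GCRMA and MAS5 were used, and which of them produced these values is not said. The log2 scale was read from the values, 1.10 to 14.74, as linear signals would not be. The sources used here name no batches.

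Genes were named from the platform's annotation, updated by gene identifier to GRCm38.p6 symbols (34754 of 34958 probe sets with 1 gene). The 932 probe sets naming several genes were not used, a pair of them holding Gpc2 or Chst11. The 64 control probe sets were left out. Tested were the 22340 probe sets that exceeded the median of the array on 5 or more arrays. The change, mutant minus wild type, was fitted with limma 3.58.1 (lmFit, eBayes) in R 4.3.3, two-sided, adjusted by Benjamini-Hochberg over all of them, threshold 0.05. Intervals and standard errors are the moderated ones. Members below the filter got exact two-sided permutation tests (smallest possible p 0.00794). The fit was tested on simulated data.

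Members and gene lists were chosen with earlier results of these data known. Called members and those whose groups do not overlap are given array by array, the others by range and count, with at least the 2 brightest and the 2 of largest change in each role named. Markers covered 11 cell types. Alternatives changed the filter, normalisation, variance model, test, probe set choice, covariates, threshold and arrays. Leaving out the 4 arrays richest in skeletal muscle signal was added after seeing the data. The brown fat covariate separates the groups, so its fits cannot tell brown fat signal from genotype.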

Additional observations from a re-analysis of the deposited data

Results flagged for a closer look

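Of 82 sets of 5 arrays (41 tested members in 2 groups) 6 held an array far from the other 4, and about 1 in 20 sets would by chance. The measure is the gap to the nearest array as a share of the whole range. For Gpc3 mutant F12 was low, at 6.67 with the nearest array at 7.14 (0.864 of the range). For Gpc1 the same array was high, at 5.65 against 4.60 (0.834). It is the array with the most skeletal muscle and brown fat signal, and the part of that signal was not tested. For Hs3st3b1 mutant F19 was high, at 3.41 against 3.21 (0.802). For Chpf wild type F14_2 was low, at 3.41 against 3.95 (0.771). For Hspg2 wild type F11 was high, at 8.24 against 8.03 (0.752). For Chst1 wild type F17 was high, at 6.66 against 5.89 (0.725).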

How the results depend on the processing

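No paired analysis was possible because the groups share no replicate identifiers. Slc26a2 1427195_at had a lower mean in the mutant under all 24 alternatives and passed in 21, the exceptions being given with its result. In all, 48 probe sets passed, but 17 with no filter on dim ones, 141 with the 75th percentile filter, 13 by the ordinary one-way analysis and 9 to 43 with an array left out (43 without wild type F14_2, 34 without wild type F11, and 9 to 23 without any other array). It was 0 with the brown fat covariate, 7 with the skeletal muscle covariate, 89 with the adventitial fibroblast covariate, 6 at a threshold of 0.01 and 191 at 0.1, and 0 without the 4 arrays richest in skeletal muscle signal. The number of members passing was 2 with the 75th percentile filter and 2 at a threshold of 0.1, in both cases Slc26a2 and Gpc3. It was 0 with the brown fat covariate and 0 without those 4 arrays, and otherwise 1, which with probe sets averaged was Gpc6 in place of Slc26a2. Lower means numbered 27 to 31 of 41 with an array left out, 24 with the brown fat covariate and 27 without the 4 arrays. The median change of the supply genes was -0.015 without the 4 arrays, and that of the cores -0.18 with the 75th percentile filter, which tests fewer genes. With the brown fat covariate the medians of 2 lists were nearer 0, at -0.032 for the sulfotransferases and endosulfatases and -0.013 for chain synthesis. Those of the other 2 were further below 0, at -0.155 for the supply genes (-0.128 without it) and -0.062 for the cores (-0.019 without it). Papss2 1434510_at ranged from -0.023 (without wild type F14_2) to 0.184 with an array left out. Of the 41 members 32 kept their sign with any array left out; Papss2, Ext1, Extl3, Ndst2, Chst1, Chst11, Sdc1, Sdc3 and Sdc4, none past the threshold, did not. Other causes were not tested. Members near the lower end of the range, such as Chst3, could differ without it showing.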
